A study of Mus musculus with 8 samples.

Results

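The 10 genes studied here act inside the T cell to restrain signalling from the T cell receptor, and were followed through IL-10 receptor blockade: Cblb, Cbl, Itch and Rnf128 (ubiquitin ligases), Dgka and Dgkz (diacylglycerol kinases), and Ptpn22, Ptpn6, Ptpn11 and Ubash3a (phosphatases and a phosphatase-like protein). They were taken by symbol from the rows of the deposited array table that carry exactly 1 gene symbol, with the brightest row kept for each gene, and are 10 of 22180 such genes. Expression was measured on 8 GeneChip Mouse Gene 2.0 ST arrays, 4 from mice given an anti-IL-10R antibody, which blocks the receptor for interleukin 10, and 4 from mice given an isotype control antibody. All mice were female (strain given as C57BL/6 in the protocols and as C56BL/6 in the sample tags) and all carried transplanted leukaemia cells from Eµ-TCL1 mice, in which an immunoglobulin enhancer drives the TCL1 oncogene in B cells, a model of chronic lymphocytic leukaemia. Antibody was first given 3 weeks after transplantation, for 2 weeks per the series text, and CD8 T cells were sorted from spleens taken at week 5. The sort took lineage-negative cells with surface TCR beta and CD8, much PD-1, little CD127 and middling or more CD44. The labels do not say whether each array came from a separate mouse, so every p-value reflects only how these arrays scatter, which may be technical. In a sorted population measured in bulk, fewer cells of a type and less RNA per cell cannot be told apart.

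When the T cell receptor is engaged, kinases phosphorylate adaptor proteins, phospholipase C makes diacylglycerol, and diacylglycerol recruits RasGRP1 and protein kinase C theta. The brakes work at each of these steps: phosphatases take phosphate off the kinases and adaptors, ubiquitin ligases mark signalling proteins for removal or inactivation, and diacylglycerol kinases convert diacylglycerol to phosphatidic acid. Several of them, among them Cblb, Dgka, Dgkz and Rnf128, are known from studies of T cell anergy, and Ptpn11 encodes SHP2, a phosphatase that binds the tail of PD-1.

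Promoter sequences are shown for Cblb, the 1 member that passed the test of differential expression, for its paralog Cbl, and for Ptpn11, whose measured difference was the largest with all arrays (not without isotype replicate 1). Each runs 5′ to 3′ on the gene's strand from 250 bases before to 50 after the annotated start, from RefSeq on GRCm38.p6. Capitals mark matches on either strand to the letters GGAAA (the core bound by NFAT) or GCGNGGGCG (bound by EGR factors). The Cblb stretch is chr16:52031299-52031598 on the plus strand, the Cbl stretch chr9:44233997-44234296 on the minus strand and the Ptpn11 stretch chr5:121191348-121191647 on the minus strand.
Cblb: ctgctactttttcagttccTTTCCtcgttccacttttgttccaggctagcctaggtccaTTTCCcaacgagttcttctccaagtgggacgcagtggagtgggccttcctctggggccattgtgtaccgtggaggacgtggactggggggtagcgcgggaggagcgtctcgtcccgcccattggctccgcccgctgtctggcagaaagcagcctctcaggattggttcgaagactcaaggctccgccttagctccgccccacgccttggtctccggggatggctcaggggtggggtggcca
Cbl: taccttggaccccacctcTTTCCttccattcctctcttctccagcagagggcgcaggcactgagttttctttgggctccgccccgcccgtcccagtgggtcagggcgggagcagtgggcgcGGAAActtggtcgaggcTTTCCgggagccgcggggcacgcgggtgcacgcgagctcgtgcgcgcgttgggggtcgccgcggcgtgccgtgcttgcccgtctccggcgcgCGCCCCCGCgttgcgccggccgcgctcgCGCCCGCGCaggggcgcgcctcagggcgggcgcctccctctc
Ptpn11: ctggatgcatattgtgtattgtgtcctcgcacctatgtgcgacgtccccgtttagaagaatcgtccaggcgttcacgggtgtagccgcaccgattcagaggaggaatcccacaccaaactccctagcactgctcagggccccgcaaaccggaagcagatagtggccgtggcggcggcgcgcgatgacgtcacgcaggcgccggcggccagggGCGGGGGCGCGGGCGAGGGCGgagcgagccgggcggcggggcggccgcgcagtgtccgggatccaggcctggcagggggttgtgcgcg
The Cblb promoter held 2 matches to GGAAA, which begin 231 and 191 bases before the start, and none to GCGNGGGCG. The Cbl promoter held 3 matches to GGAAA and 2 to GCGNGGGCG, and the Ptpn11 promoter none and 3, where the 3 overlap one another. Of the 32851 promoters in the RefSeq table, 61.3% held GGAAA and 5.55% held GCGNGGGCG. Letters for AP-1 (TGANTCA, in 7.81% of all promoters), FOXO (TGTTTAC, 3.65%) and STAT factors (TTCNNNGAA, 8.3%) were searched in the same way and did not occur in these 3 stretches. These matches describe the letters alone, and 9 of the 10 members had a promoter in that table.

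The arrays were alike in overall level, and the log2 medians of all 41345 rows ran from 5.19 to 5.31, but isotype replicate 1 stood apart. Its correlation with the other arrays across the tested genes was 0.915 to 0.929, and that among the other 7 arrays was 0.962 to 0.986 (Pearson's r, computed across genes, and genes are not independent replicates). Results are therefore given with and without it. Of the genes behind the sort, Cd3e, Cd8a, Cd8b1 and Pdcd1 were bright and averaged 12.60, 11.12, 12.06 and 11.45 in anti-IL-10R arrays and 12.33, 10.81, 11.76 and 10.95 in isotype arrays. Cd44 was of modest signal, at 6.63 ± 0.20 in anti-IL-10R arrays and 6.44 ± 0.26 in isotype arrays (SD, n = 4 each). Il7r, which encodes CD127, lay between 3.08 and 4.47, below the limit for dim genes. B cell markers (10 of 11 had a row, 7 of them dim) summed to 48.0 to 49.4 in anti-IL-10R arrays and 47.9 to 54.1 in isotype arrays on the log2 scale, with the highest sum in isotype replicate 3. Myeloid markers (10 of 10, 7 dim) summed to 50.3 to 52.1 in anti-IL-10R arrays and 49.8 to 54.7 in isotype arrays, and NK cell markers (3 of 5, of which Ncr1 and Klrb1c were dim) to 20.9 to 21.5 in anti-IL-10R arrays and 20.4 to 22.6 in isotype arrays. Markers of CD4 and regulatory T cells (4 of 5, of which Cd4 and Cd40lg were dim) summed to 20.3 to 21.5 in anti-IL-10R arrays and 20.6 to 23.8 in isotype arrays. Isotype replicate 1 had the highest sum of these last 3 lists, and its Foxp3 signal was 7.97, against 5.08 to 5.95 on the other 7 arrays. No row was on hand for the 4 erythroid markers, which were not analysed here. With the mean B cell marker level as a covariate Cblb differed by 0.49 (limma adjusted p = 0.164) and no gene of the 4 lists described below passed. The part of the myeloid, NK cell and CD4 or regulatory T cell markers in the results was not tested.

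After IL-10 receptor blockade Cblb alone among the 10 members passed the test, and it was higher. Of the members, 9 were bright enough to be tested (a mean of at least 5.24, the median of all rows), and 8 of these had a higher mean in anti-IL-10R arrays, with a median difference of 0.32 on the log2 scale. Ptpn6 was the exception. Over all 12019 tested genes 54.7% were higher and the median difference was 0.03. The members were chosen with earlier results of these data known, so their lean is not independent of the data. The threshold was a limma adjusted p below 0.05, which 304 genes (2.53%) passed, 148 of them (1.23%) higher. Without isotype replicate 1, 8 of 9 members again had the higher mean, their median was 0.23 and the median of all tested genes −0.01. Cblb was again the 1 member that passed, among 1112 genes (9.25%, and 3.35% in the higher direction). Each tested member's deviation from its own mean over the 8 arrays, averaged over the 9, was 0.09 to 0.19 in the anti-IL-10R arrays, against −0.49 in isotype replicate 1 and −0.09, −0.01 and −0.02 in isotype replicates 2 to 4. Isotype replicate 1 held the lowest value of 6 of the 10 members.

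**Figure D1:**
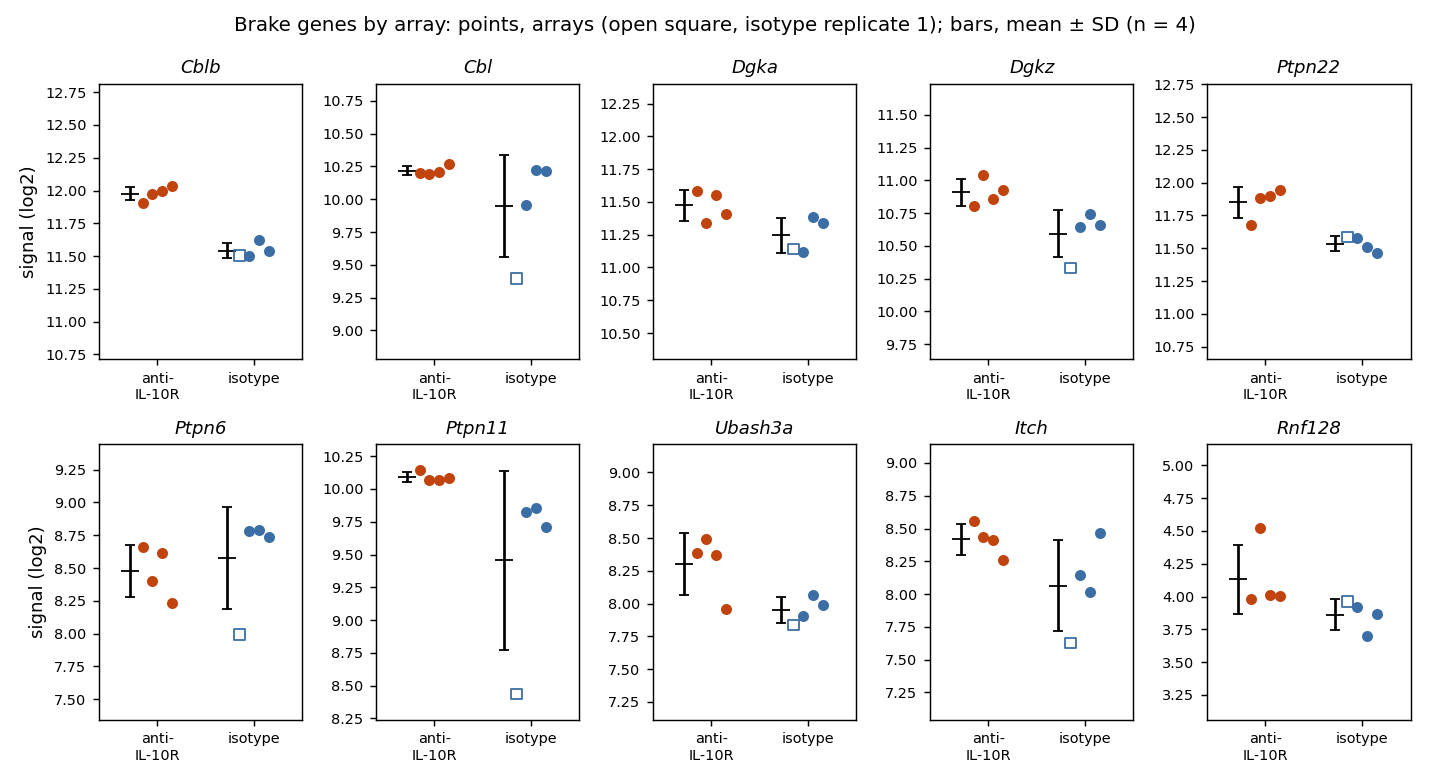
Log2 signal of the 10 brake genes on each array, with anti-IL-10R arrays left and isotype arrays right in every panel; points are arrays, the open square is isotype replicate 1, and bars are the mean ± SD of 4 arrays. All panels span the same log2 range, and Cblb shows 4 anti-IL-10R arrays from 11.91 to 12.03 above 4 isotype arrays from 11.50 to 11.62.

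Cblb encodes the ubiquitin ligase Cbl-b, which raises the need for CD28 costimulation and whose loss makes T cells hyperresponsive in mice. Its signal (transcript cluster 17326208) was 11.91, 11.98, 12.00 and 12.03 in the anti-IL-10R arrays, against 11.51, 11.50, 11.62 and 11.54 in the isotype arrays. The groups did not overlap, and the gap between them was wider than the spread within either. The means were 11.98 ± 0.05 in anti-IL-10R arrays and 11.54 ± 0.06 in isotype arrays (SD, n = 4 each), so Cblb rose by 0.44 ± 0.09 (SE) on the log2 scale, which is 1.35-fold with a 95% interval of 1.17 to 1.57 (limma adjusted p = 0.0478). Without isotype replicate 1 the difference was 0.42 ± 0.09 (limma adjusted p = 0.0217). The size of the difference stayed between 0.39 and 0.49 over 17 alternative analyses, while its adjusted p lay between 0.00727 and 0.164 and was below 0.05 in 6 of them. Leaving out any 1 of the other 7 arrays ended the call (adjusted p 0.0858 to 0.146). The sort genes Cd3e, Cd8a and Cd8b1 differed on the same arrays by 0.27 ± 0.10, 0.31 ± 0.09 and 0.30 ± 0.11 (SE), and Pdcd1 by 0.50 ± 0.19. None of them passed (limma adjusted p = 0.165, 0.106, 0.184 and 0.177). Without isotype replicate 1 their differences were 0.24, 0.30, 0.22 and 0.30 in the same order. Their groups did not overlap either, with the anti-IL-10R arrays higher, as for 9.32% of all tested genes. Cd44 differed by 0.19 ± 0.16 (0.06 without isotype replicate 1) with groups that overlapped.

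Cbl, the closest relative of Cblb, encodes c-Cbl, which ubiquitinates activated receptors and kinases. It had 10.20, 10.19, 10.21 and 10.27 in the anti-IL-10R arrays, against 9.40, 9.96, 10.22 and 10.22 in the isotype arrays. Isotype replicates 3 and 4 lay within the anti-IL-10R values, and isotype replicate 1 lay far below all others. The difference of 0.27 ± 0.18 (SE; limma adjusted p = 0.444) shrank to 0.08 ± 0.10 without isotype replicate 1 (limma adjusted p = 0.641). Itch, a HECT-type ubiquitin ligase that acts on JunB and phospholipase C gamma, had 8.55, 8.44, 8.42 and 8.26 in the anti-IL-10R arrays, against 7.63, 8.15, 8.02 and 8.46 in the isotype arrays. Isotype replicate 4 lay among the anti-IL-10R values, so the groups overlapped. Its difference was 0.35 ± 0.17 (limma adjusted p = 0.288), and 0.21 ± 0.13 without isotype replicate 1.

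Rnf128 encodes GRAIL, a membrane-bound ubiquitin ligase of anergic and regulatory T cells. It was dim on every array, with 3.98, 4.52, 4.01 and 4.01 in the anti-IL-10R arrays, against 3.96, 3.92, 3.70 and 3.87 in the isotype arrays. The groups did not overlap, but 3 anti-IL-10R arrays lay just above the highest isotype array and replicate 2 lay far above. Rnf128 was below the limit for dim genes and so was not among the 12019 tested genes. In the fit of all 22180 genes, of which 0.654% passed, it differed by 0.27 ± 0.14 (SE; limma adjusted p = 0.445), and by 0.14 without anti-IL-10R replicate 2. The regulatory T cell marker Foxp3, given above, was highest in isotype replicate 1, where Rnf128 was 3.96, against 3.92 in isotype replicate 2. Anti-IL-10R replicate 2, the highest array for Rnf128, had a Foxp3 signal of 5.35. A link between these genes was not tested.

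Neither diacylglycerol kinase passed the test. Dgka, which encodes the alpha form, had 11.58, 11.34, 11.56 and 11.41 in the anti-IL-10R arrays, against 11.14, 11.12, 11.38 and 11.34 in the isotype arrays. The groups overlapped narrowly, and the difference was 0.23 ± 0.11 (SE; limma adjusted p = 0.303, or 0.296 without isotype replicate 1). Dgkz encodes the zeta form, which limits Ras activation downstream of the receptor. It had 10.80, 11.04, 10.86 and 10.92 in the anti-IL-10R arrays, against 10.33, 10.64, 10.75 and 10.66 in the isotype arrays. The groups did not overlap, with isotype replicate 3 close under anti-IL-10R replicate 1, and the difference of 0.31 ± 0.12 did not pass (limma adjusted p = 0.191). Without isotype replicate 1 it was 0.23 ± 0.10 (limma adjusted p = 0.169). Dgkz was the 1 member with a second row (transcript cluster 17373448), which was dim, with 4.12 ± 0.12 in anti-IL-10R arrays and 4.48 ± 0.54 in isotype arrays (SD, n = 4 each). The mean of both rows differed by −0.02 with all 8 arrays, so the direction of Dgkz held in the bright row alone. In the dim row isotype replicate 1 was at 5.27. The other isotype arrays were at 4.07 to 4.37 there, and the anti-IL-10R arrays at 4.05 to 4.29.

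Among the phosphatases, Ptpn22, which encodes an enzyme that acts with the kinase CSK on LCK and ZAP70, came closest to Cblb. It had 11.68, 11.88, 11.90 and 11.94 in the anti-IL-10R arrays, against 11.59, 11.58, 11.51 and 11.47 in the isotype arrays. No isotype array reached the lowest anti-IL-10R array. The means of 11.85 ± 0.12 in anti-IL-10R arrays and 11.53 ± 0.06 in isotype arrays (SD, n = 4 each) differed by 0.32 ± 0.10 (SE; limma adjusted p = 0.127). Isotype replicate 1 was the highest isotype array here, and without it the difference was 0.33 ± 0.10 (limma adjusted p = 0.0652). Ptpn22 passed in 2 of 17 alternatives, array weights and a trended, robust variance (adjusted p 0.0424 and 0.0367).

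Ptpn11 and Ptpn6 encode SHP2 and SHP1, paralogous phosphatases with paired SH2 domains. Ptpn11 had 10.14, 10.07, 10.07 and 10.08 in the anti-IL-10R arrays, against 8.44, 9.82, 9.86 and 9.71 in the isotype arrays. The anti-IL-10R arrays lay within a narrow band above all isotype arrays, and isotype replicate 1 lay far below the rest. The difference was 0.63 ± 0.28 (SE; limma adjusted p = 0.254) and fell to 0.29 ± 0.09 without that array (limma adjusted p = 0.0686). Ptpn6, a phosphatase of many blood cells, had 8.66, 8.40, 8.61 and 8.23 in the anti-IL-10R arrays, against 7.99, 8.79, 8.79 and 8.74 in the isotype arrays. Isotype replicate 1 was the lowest of all 8 and the other isotype arrays were the highest. The difference was −0.10 ± 0.19 (limma adjusted p = 0.815), and −0.30 ± 0.12 without isotype replicate 1 (limma adjusted p = 0.148). Without that array the groups no longer overlapped, as for 25.5% of all tested genes in either direction (11.3% with the anti-IL-10R arrays higher). The Ptpn6 difference moved with most single arrays, from −0.30 to −0.02, and was below 0 in all 17 alternatives.

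Ubash3a encodes STS-2, a T cell protein related to phosphatases that dampens receptor signalling. It had 8.38, 8.49, 8.37 and 7.96 in the anti-IL-10R arrays, against 7.84, 7.91, 8.07 and 7.99 in the isotype arrays. Anti-IL-10R replicates 1 to 3 lay above all isotype arrays, and replicate 4 lay among them. The difference was 0.35 ± 0.13 (SE; limma adjusted p = 0.19), and 0.31 ± 0.13 without isotype replicate 1. Its paralog Ubash3b, which encodes the active phosphatase STS-1, averaged 9.97 ± 0.07 in anti-IL-10R arrays and 9.75 ± 0.09 in isotype arrays (SD, n = 4 each).

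**Figure D2:**
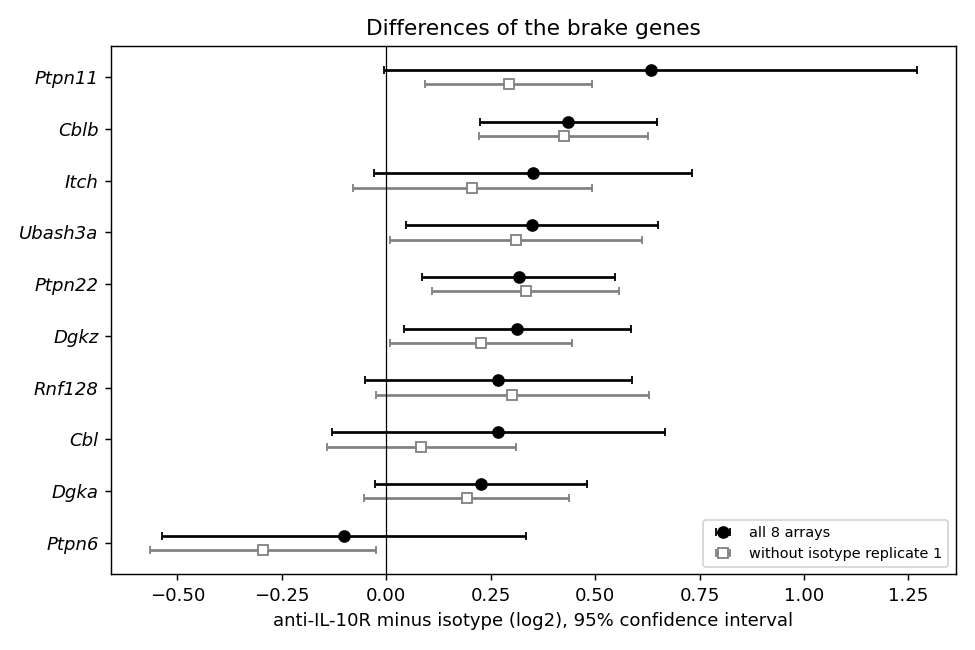
Difference of each brake gene (log2 scale, isotype subtracted from anti-IL-10R) with 95% confidence intervals from limma, for all 8 arrays (black) and without isotype replicate 1 (grey squares). Cblb keeps its place at 0.44 and 0.42, Ptpn11 moves from 0.63 with all arrays to 0.29, and Ptpn6 lies below 0 in both.

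In 4 of the 9 tested members (Cblb, Dgkz, Ptpn22 and Ptpn11) every anti-IL-10R array lay above every isotype array, as for 9.32% of all tested genes, and 15.3% of them had groups apart in either direction. Without isotype replicate 1 the same 4 members were apart in that direction, as were 11.3% of all tested genes. The wide interval of Ptpn11 and the narrow one of Cblb are seen in the plot of differences with their confidence intervals.

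Related brakes were also set against each other within each array, which asks whether they changed unequally. Over 4 pairs none passed a two-sided exact permutation test after Benjamini-Hochberg adjustment, but 4 arrays against 4 cannot give an unadjusted p below 0.0286, so a single pair whose groups are fully apart cannot go below an adjusted p of 0.114. Ptpn6 minus Ptpn11 was −1.48, −1.67, −1.45 and −1.85 in the anti-IL-10R arrays, against −0.44, −1.04, −1.07 and −0.97 in the isotype arrays. The groups were apart, with a shift of −0.73 (exact permutation p = 0.0286, adjusted p = 0.114), or −0.59 without isotype replicate 1, the array nearest 0. Cblb minus Cbl averaged 1.76 ± 0.04 in anti-IL-10R arrays and 1.59 ± 0.36 in isotype arrays (SD, n = 4 each; shift 0.17, exact permutation adjusted p = 0.533). That shift was 0.34 without isotype replicate 1 (exact permutation adjusted p = 0.0571), 0.10 without isotype replicate 3 and 0.08 without isotype replicate 4. Dgka minus Dgkz shifted by −0.09 and Ubash3a minus Ubash3b by 0.14 (exact permutation adjusted p = 0.543 and 0.457). With single arrays left out, these spanned −0.16 to 0.003 (above 0 without anti-IL-10R replicate 2) and 0.07 to 0.22 (lowest without anti-IL-10R replicate 2, highest without anti-IL-10R replicate 4).

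**Figure D3:**
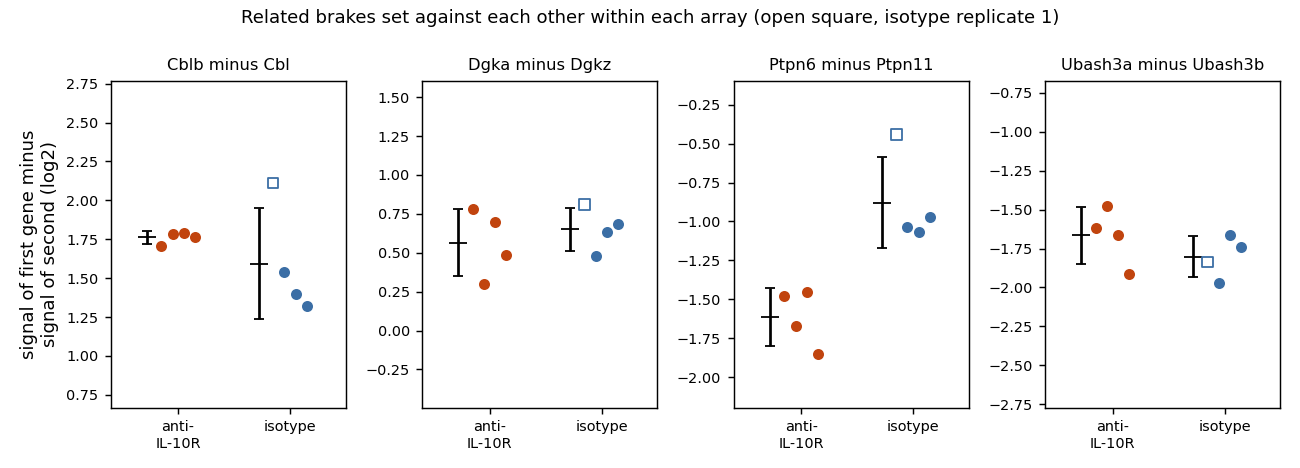
Log2 signal of the first gene minus that of the second on each array, for 4 pairs of related brakes, with anti-IL-10R arrays left and isotype arrays right; bars are the mean ± SD of 4 arrays and the open square is isotype replicate 1. The groups are apart for Ptpn6 minus Ptpn11 alone, at −1.61 in anti-IL-10R arrays and −0.88 in isotype arrays on average.

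Beyond the 10 members, 38 of 40 other genes listed here as brakes on T cell receptor signalling had a row, and 36 were tested. Of these, 32 had a higher mean after blockade and 4 a lower one, with a median difference of 0.25, and 1 passed the threshold (2.78% of the 36, beside 2.53% of all tested genes). This was Lax1, an adaptor protein that limits lymphocyte signalling, with 10.99, 11.07, 10.93 and 11.13 in the anti-IL-10R arrays, against 10.50, 10.65, 10.60 and 10.55 in the isotype arrays. The groups were well apart, and Lax1 rose by 0.45 ± 0.10 (SE; limma adjusted p = 0.0491). As with Cblb, leaving out isotype replicate 1 lowered the adjusted p, to 0.0249, and leaving out any other array ended the call (0.0905 to 0.132). This list and those described below were, like the members, chosen with earlier results of these data known. The leans of the lists are therefore not independent of the data.

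The next brakes by p were Tbc1d10c, Rasa1, Peli1 and Inpp5d. Tbc1d10c encodes carabin, an inhibitor of calcineurin and Ras, and averaged 11.16 ± 0.07 in anti-IL-10R arrays and 10.73 ± 0.06 in isotype arrays (SD, n = 4 each; limma adjusted p = 0.0507). Rasa1, a Ras GTPase-activating protein, differed by 0.46 ± 0.12 (SE), Peli1, a ubiquitin ligase, by 0.48 ± 0.13, and Inpp5d, which encodes the lipid phosphatase SHIP1, by 0.48 ± 0.15 (limma adjusted p = 0.0769, 0.0798 and 0.111). Without isotype replicate 1 Rasa1, Peli1 and Inpp5d differed by 0.37, 0.51 and 0.36. All 4 of these next brakes were named for their small p, and their groups did not overlap. The anti-IL-10R arrays lay above all isotype arrays for 11 of the 36 tested genes of this list, and for 9.32% of all tested genes. Without isotype replicate 1, the list had 26 higher and 10 lower members and a median of 0.17, and 4 passed: Lax1, Tbc1d10c, Rasa1 and Peli1 (limma adjusted p 0.0249 to 0.0414), in a fit where 9.25% of all tested genes passed and 3.35% passed as higher.

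Of 20 genes for signalling steps that the brakes act against, 16 had a row and were tested. The rest were not analysed here. In 14 of the 16 the mean was higher after blockade, with a median of 0.25, and 1 passed (6.25%), beside 54.7% higher and 2.53% past the threshold among all tested genes. It was Rasgrp1, the diacylglycerol-dependent Ras activator that Dgka and Dgkz oppose, with 9.45, 9.78, 9.56 and 9.71 in the anti-IL-10R arrays, against 9.14, 9.14, 9.08 and 9.15 in the isotype arrays. Every anti-IL-10R array was higher than every isotype array. The gene rose by 0.50 ± 0.11 (SE; limma adjusted p = 0.0471, or 0.021 without isotype replicate 1), and leaving out any other array ended the call (0.0716 to 0.129). Plcg1, which encodes the phospholipase that makes diacylglycerol, differed by 0.39 ± 0.11 and the exchange factor gene Vav1 by 0.37 ± 0.14 (limma adjusted p = 0.0923 and 0.187). Pik3cd, a catalytic subunit of phosphoinositide 3-kinase, differed by 0.33 ± 0.14. Without isotype replicate 1 Plcg1, Vav1 and Pik3cd differed by 0.33, 0.26 and 0.25. The list's median was 0.14 without isotype replicate 1, with 11 higher and 5 lower.

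The transcription factor list, with 11 genes tied to brake expression in anergy or exhaustion, had no settled lean. Of the 11, 7 were lower after blockade, the median was −0.14, and none passed by limma at an adjusted p below 0.05 (5 of the 11 had an unadjusted p below 0.05, as had 2402 of all 12019 tested genes). The median turned to 0.02 without isotype replicate 3 and to 0.02 without isotype replicate 4, with 6 of the 11 higher in each case, and was −0.003 with the B cell marker covariate. Nr4a2, an orphan nuclear receptor gene, averaged 11.59 ± 0.07 in anti-IL-10R arrays and 11.08 ± 0.18 in isotype arrays (SD, n = 4 each; limma adjusted p = 0.0555). Foxo3 differed by 0.56 ± 0.18 (SE) and Nfatc1 by 0.30 ± 0.11 (0.63 and 0.33 without isotype replicate 1). Egr2, a factor that drives Cblb in mouse T cells, had 7.70, 7.95, 7.41 and 7.63 in the anti-IL-10R arrays, against 8.05, 8.17, 8.05 and 7.98 in the isotype arrays. It was lower on every anti-IL-10R array, by 0.39 on average, and did not pass (difference −0.39 ± 0.13, limma adjusted p = 0.135). Without isotype replicate 1 Nr4a2 passed as higher and Nr4a1 as lower (limma adjusted p = 0.027 and 0.0128), where 9.25% of all tested genes passed. Nr4a1, named after its values were seen, differed by −0.67 there and by −0.14 with all arrays, and by 0.01, 0.09 and 0.02 without isotype replicates 2, 3 and 4.

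**Figure D4:**
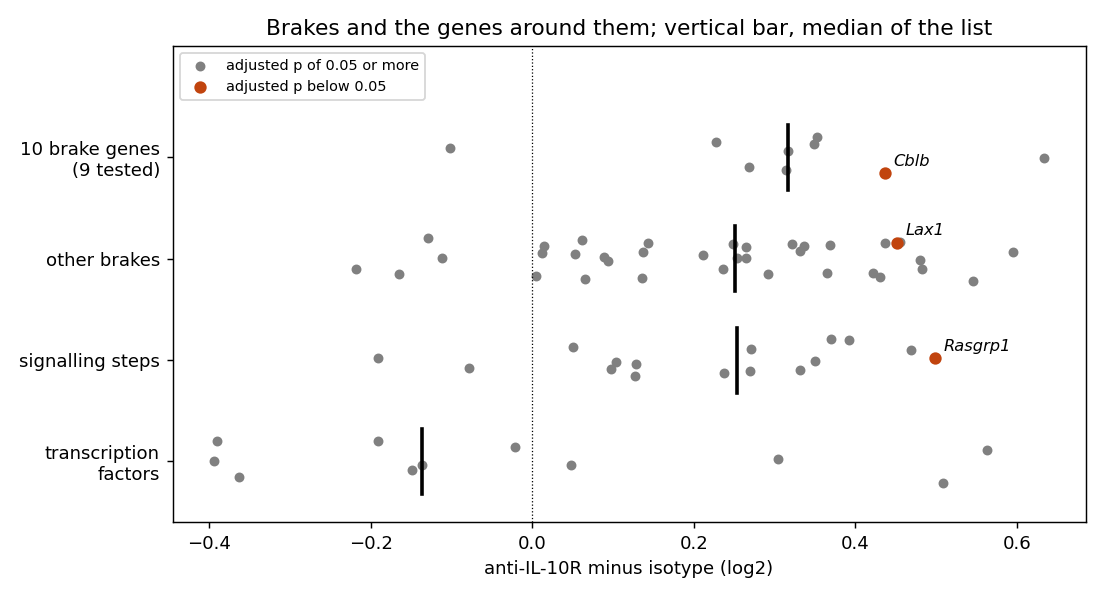
Difference of each tested gene (log2 scale, isotype subtracted from anti-IL-10R) in 4 lists; orange points passed the limma adjusted p of 0.05 and black bars are list medians. The medians are 0.32 for the 9 tested brake genes, 0.25 for the other brakes, 0.25 for the signalling steps and −0.14 for the transcription factors. Without isotype replicate 1 they are 0.23, 0.17, 0.14 and −0.13, and that of the transcription factors is 0.02 without isotype replicate 3 or 4. With all arrays 1 gene passed in each of the first 3 lists. All 4 lists were chosen with earlier results of these data known.

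The 3 tested genes whose profile over the 8 arrays lay nearest to that of Cblb were Ajm1, Arhgap9 and Ncoa2, of which the last encodes a nuclear receptor coactivator. Their root mean square differences from Cblb, after each profile was centred on its own mean, were 0.0503, 0.0503 and 0.0454 on the log2 scale, where the profile of Cblb itself spread by 0.223. Ncoa2 averaged 9.83 ± 0.05 in anti-IL-10R arrays and 9.43 ± 0.07 in isotype arrays, and Arhgap9 9.99 ± 0.02 in anti-IL-10R arrays and 9.57 ± 0.07 in isotype arrays (SD, n = 4 each). These 4 profiles share the step between the groups and the 8 arrays they were measured on.

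The treatment target was measured as well. Il10ra, the ligand-binding chain of the IL-10 receptor, had 10.12, 10.61, 10.43 and 10.54 in the anti-IL-10R arrays, against 9.88, 9.89, 9.90 and 9.997 in the isotype arrays. Its difference of 0.51 ± 0.13 (SE; limma adjusted p = 0.0648) and that of Pdcd1, 0.50 ± 0.19 (0.30 without isotype replicate 1), were of the same order as those of Cblb, Lax1 and Rasgrp1. Without isotype replicate 1 Il10ra differed by 0.50 ± 0.13 and passed (limma adjusted p = 0.0413), as did 9.25% of all tested genes. Il10rb, the other chain of the receptor, differed by 0.07 ± 0.14 with all arrays (limma adjusted p = 0.832).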

How the data were processed

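RNA of sorted mouse CD8 T cells was hybridised to 8 arrays, 4 per group, after WT Pico labelling. The authors deposited log2 values, 1 per transcript cluster and array, for which the submitters' processing notes name Affymetrix Power Tools. Neither the tool's version nor the normalization is given in the sources used here, while the log2 scale was read off the range of values (1.57 to 13.89). Of 41345 rows, 23521 had 1 gene symbol in the platform annotation (updated through RefSeq gene identifiers), 1814 several and 16010 none. The brightest row was kept for each of 22180 genes, and 12019 with a mean of at least 5.24 were tested with limma 3.58.1 under R 4.3.3 (functions lmFit and eBayes, with Benjamini-Hochberg adjustment over all tested genes, two-sided). Signals of different genes cannot be ranked, since probes differ between genes, and precision is limited by how many arrays there were.

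The 10 members and the gene lists were chosen with earlier results of these data known. Named were all members and, per list, the genes past the threshold and up to 4 more by smallest p, with the 3 genes nearest in profile to Cblb; a gene outside this rule is said to be so. Alternatives were the filter, quantile normalization and median centring, the mean of all rows, a trended and robust variance, array weights, a block for the replicate number, a covariate for mean B cell marker level, single arrays left out and a threshold of 0.1. The fit was tested on simulated data.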

Additional observations from a re-analysis of the deposited data

Results flagged for a closer look

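Of 68 combinations of a named gene and a group of 4 arrays, 10 held 1 array whose distance to its nearest neighbour was too large a share of the group's range by Dixon's 95% critical value; chance alone gives about 1 in 20. Among the brakes, Ptpn6 and Ptpn11 had such a value in isotype replicate 1, at 7.99 and 8.44, against 8.74 to 8.79 and 9.71 to 9.86 in the other isotype arrays. Rnf128 had one in anti-IL-10R replicate 2, at 4.52 beside 3.98 to 4.01. In isotype replicate 1 the same held for Pdcd1 at 10.34 (11.10 to 11.20 in the other isotype arrays) and Nr4a1 at 7.11 (9.12 to 9.38). The other single arrays were Cd3e at 12.57 in anti-IL-10R replicate 2, Vav1 at 8.76 and Il7r at 4.34 in anti-IL-10R replicate 4, Rasgrp1 at 9.08 in isotype replicate 3 and Il10ra at 9.997 in isotype replicate 4.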

How the results depend on the processing

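Counts of genes past the threshold were small, and most alternatives moved them. With single arrays left out they ranged from 0 to 1 for the 10 brakes, 0 to 4 for the other brakes, 0 to 1 for the signalling steps and 0 to 2 for the transcription factors, and each upper value came without isotype replicate 1. Without a filter, with centred arrays, with the replicate block and with the B cell marker covariate all 4 counts were 0 (limma). A trended and robust variance gave 2, 3, 2 and 1 genes in the same order, and array weights 2, 5, 1 and 3. For the other brakes the stricter filter and quantile normalization gave 3 each, the mean of all rows 2 and a threshold of 0.1 gave 4. For the signalling steps quantile normalization gave 0 and the threshold of 0.1 gave 2, and for the transcription factors the stricter filter, quantile normalization and the threshold of 0.1 gave 1 each. The cause of these moves was not tested. Dgkz turned to −0.0231 with the mean of its rows, and the pair Dgka minus Dgkz to 0.25 with that mean and to 0.00305 without anti-IL-10R replicate 2. The directions of the other 9 brakes held in all 17 alternatives. Nr4a1 ranged from −0.665 without isotype replicate 1 to 0.0945 without isotype replicate 3, and was also above 0 without isotype replicates 2 and 4.

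Deviations of same-numbered arrays from their group means correlated at −0.16 to 0.12 across genes. Of the anti-IL-10R arrays, replicate 2 alone correlated best with the isotype array of its own number. These values were not set against a reference, so they cannot settle whether the replicate numbers pair the arrays. The sample titles carry numbers that match between the groups for every replicate but replicate 1. The block for the replicate number, which also joins the replicate 1 arrays, gave Cblb a limma adjusted p of 0.146. Dim rows such as Rnf128 lie near the array's floor, which limits the size of their differences.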
